A study of Mus musculus with 10 samples.

Results

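Transcript levels of 9 transcription factors of the macrophage lineage, Maf, Spi1, Cebpa, Cebpb, Nr1h3, Spic, Pparg, Tfec and Mitf, were followed across 5 sorted populations of mouse antigen-presenting cells. They were taken by symbol from 22607 genes, and all 9 were measured. Every group came from wild-type C57BL/6 mice aged 8 weeks, with no treatment or engineered allele named, and comprised 2 libraries. The groups were colonic MHCII+ cells, splenic MHCII+ cells, and colonic CD11c+, CD11b+CD11c+ and CD11b+ cells. MHCII marks antigen-presenting cells of several kinds, CD11c is carried by dendritic cells and some macrophages, and CD11b by macrophages, monocytes and granulocytes, among others. The sample titles abbreviate these populations, and their tissue was read with the help of the series' title and design text. Further gates or dyes of the sort are not given here. The labels give about 20000 to 50000 cells for an RNA preparation and do not say whether both libraries of a group are from different mice. The p-values therefore reflect library-to-library spread that could be purely technical.

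PU.1, the product of Spi1, is an ETS factor on which myeloid cells depend, and its relative Spi-C, encoded by Spic, is known for the iron-recycling macrophages of the splenic red pulp. C/EBPα and C/EBPβ, from Cebpa and Cebpb, are basic leucine zipper factors of myeloid differentiation and inflammatory gene expression. c-Maf, from Maf, is a large Maf factor that supports the resident macrophage program. Nr1h3 encodes LXRα, an oxysterol receptor of cholesterol efflux, and Pparg encodes PPARγ, a fatty acid-sensing receptor; both bind DNA with RXR. Mitf and Tfec belong to the MiT/TFE family, whose members drive lysosomal genes, and Tfec is largely restricted to macrophages and related cells.

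Estimated count totals ranged from 12806139 to 41769042 per library. Levels are CPM, counts scaled to library size, after TMM scaling, a correction for library composition computed over all 10 libraries, and TPM, which is also per coding length, where genes are compared with each other. Marker lists were read against the labels. The summed CPM of 10 macrophage markers was 9777 and 13010 in the CD11b+CD11c+ libraries, 7879 and 9208 in CD11b+, 2432 and 2085 in colonic MHCII+, 1197 and 1314 in splenic MHCII+, and 302 and 1364 in CD11c+. A list of 7 markers of the cDC1 type of dendritic cell was highest in CD11c+, at 4151 and 4422 CPM. A list of 6 markers of the cDC2 type was highest in CD11b+CD11c+, at 1076 and 1123 CPM, and lowest in CD11c+, at 78.4 and 146. In CD11b+ the cDC2 list was at 621 and 710 CPM. The sum of 6 conventional dendritic cell markers was highest in splenic MHCII+, at 1294 and 1175 CPM, against 1047 and 1054 in CD11c+. The 2 CD11c+ libraries stood apart from each other: Csf1r was 53.6 CPM in replicate 1 and 315 in replicate 2, while 10 T cell markers summed to 826 and 342 CPM and 8 innate lymphoid and NK cell markers to 711 and 280. The sum of 12 epithelial markers was 5644 and 5246 CPM in colonic MHCII+ against 24.0 and 29.6 in splenic MHCII+, and lay between 521 and 1321 in the other colonic libraries. Plasma cell markers were highest in CD11c+, at 31290 and 40869 CPM, and stromal and endothelial markers in CD11b+, at 4377 and 4043 CPM. All 10 macrophage and all 12 epithelial markers were detected in every group, and the part of these other cells in the results below was not tested. In sorted bulk samples, fewer cells of a type and less RNA per cell cannot be told apart.

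**Figure D1:**
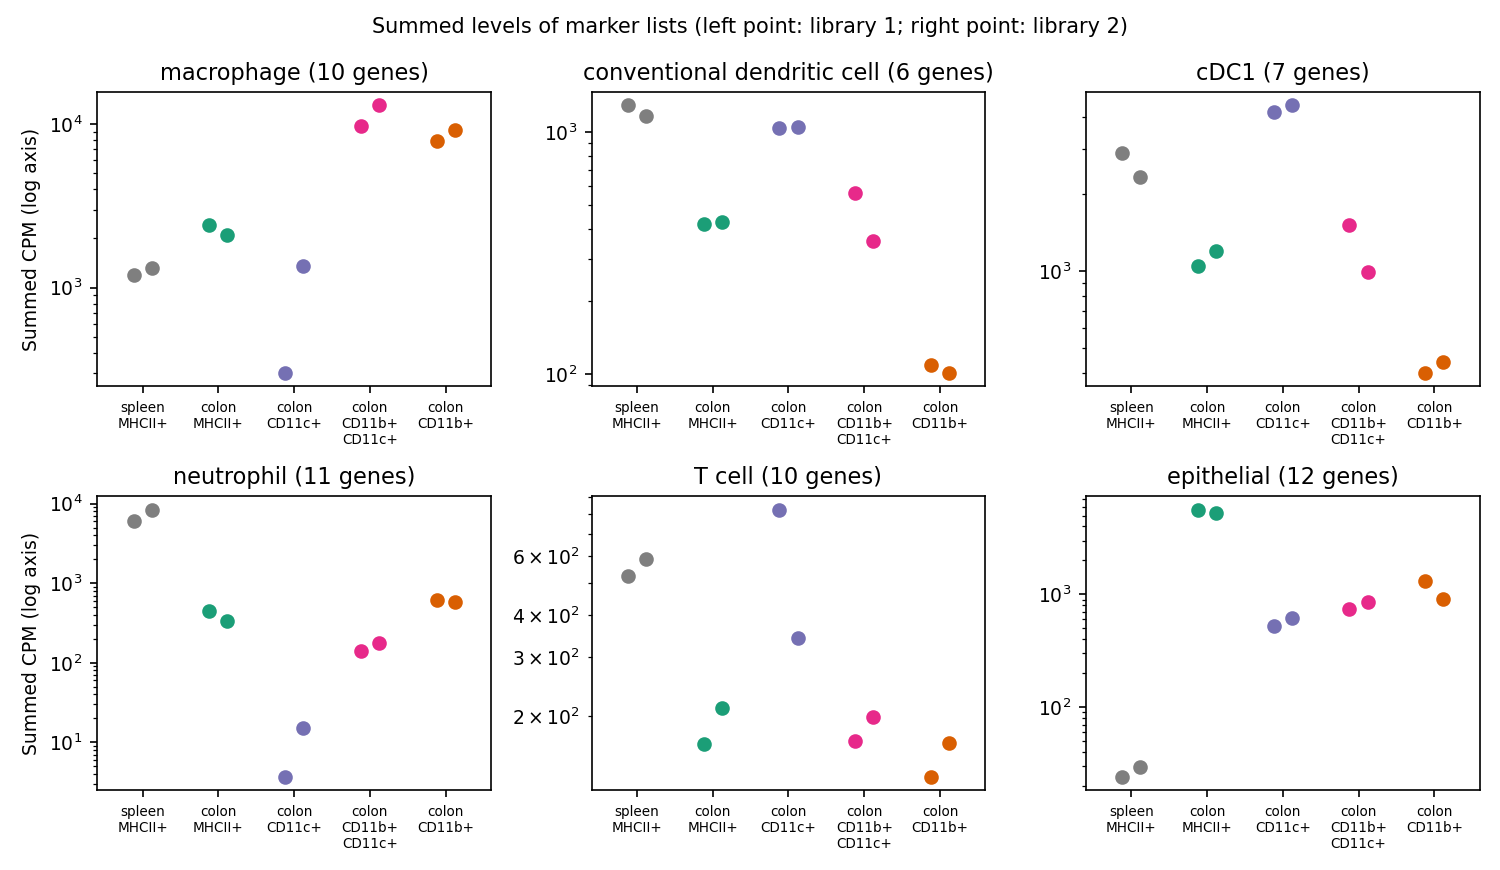
Summed CPM (log axis) of 6 marker lists in the 2 libraries of each of 5 groups; each point is a library, replicate 1 on the left. Macrophage markers are highest in the CD11b+CD11c+ and CD11b+ libraries and differ between the 2 CD11c+ libraries (302 and 1364 CPM), and epithelial markers are highest in colonic MHCII+ (5644 and 5246 CPM).

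All 9 factors were higher in colonic CD11b+ than in colonic CD11c+ cells. The largest fold changes were those of Tfec, Spic, Maf and Cebpb, at 18.6-fold, 15.7-fold, 8.09-fold and 7.82-fold, and the smallest was that of Spi1, at 1.97-fold. In no case did the libraries of these groups overlap. The share of all genes without overlap is not given here, so this has no background to be read against. Over all genes tested, 52.4% were called, 26.3% higher and 26.2% lower, at an adjusted p under 0.05 in edgeR's quasi-likelihood test. The median log2 fold change was 2.55 over the 9 factors against -0.05 over all 14225 genes. The number of genes called was 7460 with all 6 libraries and dropped to 4510 without CD11b+ replicate 1 and 4669 without CD11b+ replicate 2, and all 9 factors were called with any 1 library left out.

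The same 9 factors were higher in CD11b+CD11c+ than in CD11c+ cells, a comparison that uses the same CD11c+ libraries and is therefore not independent of the first. Here Tfec was 25.5-fold, Spic 23.0-fold and Maf 12.3-fold higher, and Spi1 1.83-fold. Of all genes, 40.3% were called, 22.2% higher and 18.1% lower. The median log2 fold change of the factors was 2.76 against -0.02 over all genes. Without CD11b+CD11c+ replicate 2 the genes called dropped from 5735 to 3170, and all 9 factors remained called.

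None of the 9 factors was called between CD11b+CD11c+ and CD11b+ cells in edgeR's test with all 6 libraries, at a background of 12.1% of genes called, 6.66% higher and 5.43% lower. DESeq2 and limma called 0 of the 9 as well, but the result was not stable: over 15 alternatives Maf passed in 5, Spic in 2 and Mitf in 1. Without the count filter the adjusted p of Maf was 0.0306 and in a fit over all 10 libraries 0.0421, and Spic passed without CD11c+ replicate 1 (0.0451) or 2 (0.0433). The largest differences were in Mitf, 1.53-fold with an adjusted p of 0.198, and Maf, 1.52-fold with an adjusted p of 0.0599, both with higher values in CD11b+CD11c+. At an unadjusted p under 0.05 in edgeR's test, Maf alone passed. The median over all genes was shifted by 0.11 on the log2 scale in this comparison and by 0.01 when scaling factors were computed within the 6 libraries, so the median of 0.30 over the factors is to be read against 0.11. Of 1719 genes called, 55.1% were higher in CD11b+CD11c+, against 39.3% with scaling within the 6 libraries. Between 231 genes, without CD11b+ replicate 1, and 2262, without a CD11c+ library, were called when 1 library was left out; the counts were 457 without CD11b+ replicate 2, and 552 and 770 without CD11b+CD11c+ replicates 1 and 2.

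Between tissues, 3 of the 9 factors were higher in colonic than in splenic MHCII+ cells, Maf 2.51-fold, Pparg 1.89-fold and Cebpb 1.56-fold, and none was called lower. The background was 60.4% of genes called, 30.5% higher and 29.9% lower, so calling 3 of 9 higher was near the share of all genes. The median log2 fold change over the factors was 0.44, against -0.03 over 15076 genes. Beside these differences, Ptprc, the gene of the pan-leukocyte protein CD45, had a level of 1066 CPM in colonic and 2943 CPM in splenic MHCII+ cells, and the epithelial sums differed as given above. The sum of 7 plasma cell markers was 13543 and 14723 CPM in colonic against 229 and 203 in splenic MHCII+, and that of 10 stromal and endothelial markers 1108 and 1339 against 177 and 345. The part of these cells in the differences was not tested.

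**Figure D2:**
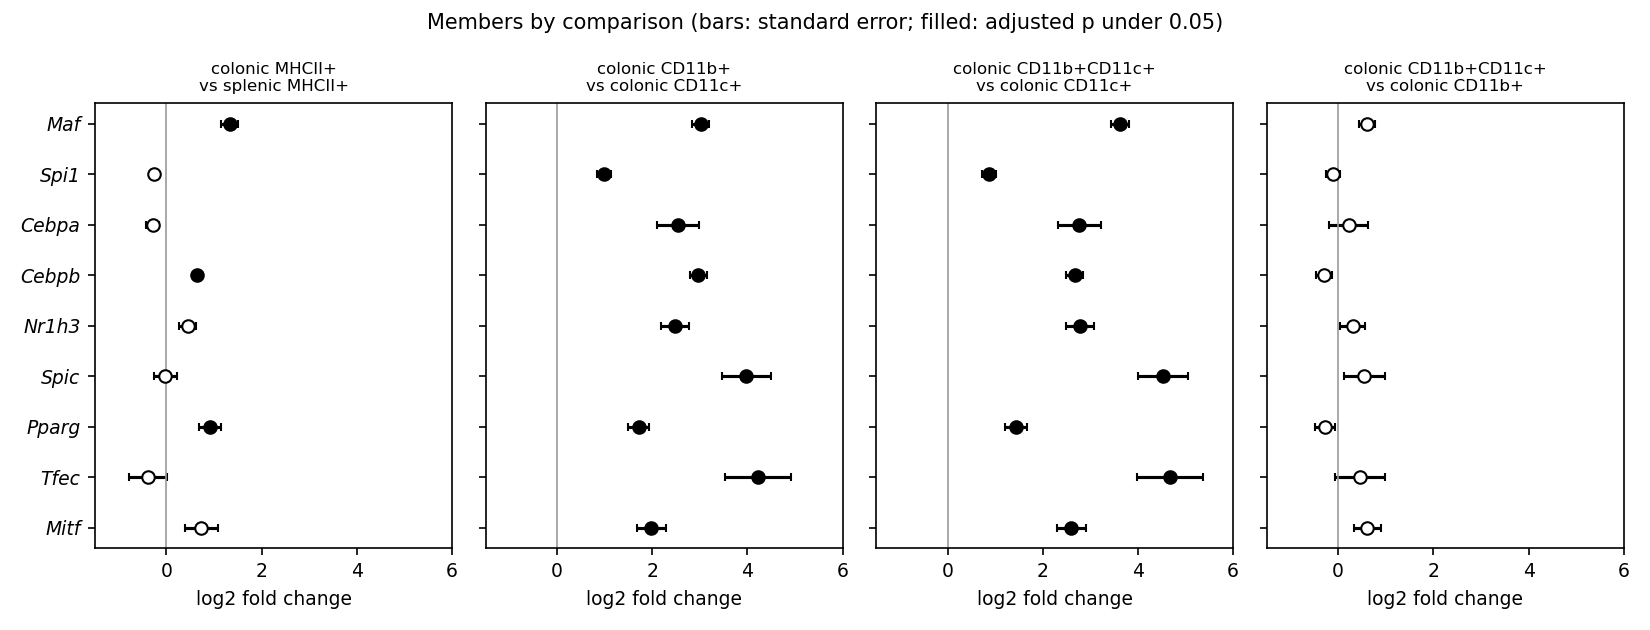
Log2 fold change (x axis) of the 9 factors (y axis) in the 4 comparisons, with standard errors as bars; filled points have an adjusted p under 0.05. All 9 are filled and to the right of 0 in both comparisons with CD11c+, 3 are filled between tissues, and none between CD11b+CD11c+ and CD11b+.

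The ETS pair was read first. Spi1 (ENSMUSG00000002111.8, GRCm38 chr2:91082390-91115756, + strand) was at 221 and 293 CPM in CD11c+, 445 and 493 in CD11b+CD11c+, 495 and 519 in CD11b+, 327 and 314 in colonic MHCII+ and 372 and 393 in splenic MHCII+. Every library carried abundant Spi1, CD11c+ was the lowest group and CD11b+ the highest, and no 2 neighbouring groups in the order by CPM overlapped. In TPM, splenic MHCII+, at 398 and 435, lay above CD11b+CD11c+, at 356 and 396, the reverse of their order in CPM. The log2 fold change was 0.98 ± 0.15 (SE) for CD11b+ over CD11c+ (edgeR adjusted p = 0.00282) and 0.87 ± 0.15 for CD11b+CD11c+ over CD11c+ (adjusted p = 0.00542). Between tissues it was -0.26 ± 0.09 with an adjusted p of 0.0510, just above the threshold. By limma on log2(TPM + 1) it was -0.47, with an adjusted p of 0.0331.

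Spic (ENSMUSG00000004359.16, chr10:88674772-88685015, - strand) was at 1.27 and 4.90 CPM in CD11c+, 60.4 and 73.9 in CD11b+CD11c+, and 42.0 and 49.7 in CD11b+. In the MHCII+ libraries it was at 18.4 and 11.4 CPM in colon and 15.4 and 15.0 in spleen. Both CD11b-positive groups lay far above CD11c+, and the colonic MHCII+ values enclosed the splenic ones. Spic was 15.7-fold higher in CD11b+ than in CD11c+ (log2 3.97 ± 0.52, edgeR adjusted p = 0.00164). The value rested in part on which CD11c+ library was used, with a log2 of 3.22 without replicate 1 and 5.16 without replicate 2. For CD11b+CD11c+ over CD11c+ the log2 was 4.52 ± 0.52 (adjusted p = 0.00137), with 3.77 and 5.71 in the same order. Between tissues the log2 was -0.02 ± 0.24 (adjusted p = 0.943), and its sign changed with the scaling.

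Per coding length, the ratio of Spi1 to Spic was far from constant. In TPM it was 119 and 56.6 in CD11c+, 6.64 and 6.03 in CD11b+CD11c+, 9.86 and 8.71 in CD11b+, 15.2 and 21.9 in colonic MHCII+, and 19.2 and 22.5 in splenic MHCII+. The 3 subset groups did not overlap in this ratio. Their relative Spib, an ETS factor of B cells and plasmacytoid dendritic cells, was 69.7 and 82.4 CPM in splenic MHCII+ and at most 4.78 in every colonic library. It was lower in colonic than splenic MHCII+ cells, with a log2 of -4.44 ± 0.18 (edgeR adjusted p = 8.35e-06). Beside it, 8 B cell markers summed to 1530 and 1601 CPM in splenic and 77.4 and 78.2 in colonic MHCII+ cells.

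Of 12 genes linked to PU.1, receptors, adhesion and signalling molecules of myeloid cells, 11 were higher and 1 lower in CD11b+ than in CD11c+, with a median log2 of 2.27 against -0.05 for all genes. In CD11b+CD11c+ over CD11c+, 11 were higher and none lower. Among all genes, 26.3% and 22.2% were called higher in these comparisons. Itgam, the gene of CD11b, was among the 11 in both comparisons. The groups were sorted on that protein, so the Itgam difference is not a result independent of the sort. Csf1r, the receptor of macrophage colony-stimulating factor, was 2170 CPM in CD11b+ and 184 in CD11c+ on average (log2 3.56 ± 0.76, edgeR adjusted p = 0.00960), with a log2 of 2.79 without CD11c+ replicate 1 and 5.34 without replicate 2. The exception was Csf2rb, the shared β chain of the GM-CSF receptor, at 912 CPM in CD11b+ and 1651 in CD11c+ (log2 -0.86 ± 0.14, adjusted p = 0.00334). Between tissues 4 were higher in colon, Adgre1, Cd14, Csf2rb and Tlr4, 2 were lower, Btk and Tyrobp, and the median was 0.13. These 6 of 12 are under the background of 60.4% of genes called. By limma 2 were higher, and without colonic MHCII+ replicate 1, 4 were lower. Cd14, a co-receptor for lipopolysaccharide, was 27.3-fold higher in colonic MHCII+ (log2 4.77 ± 0.11, adjusted p = 2.48e-06). Several of these genes are also macrophage markers, and their CD11c+ values differed between the libraries as Csf1r did.

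**Figure D3:**
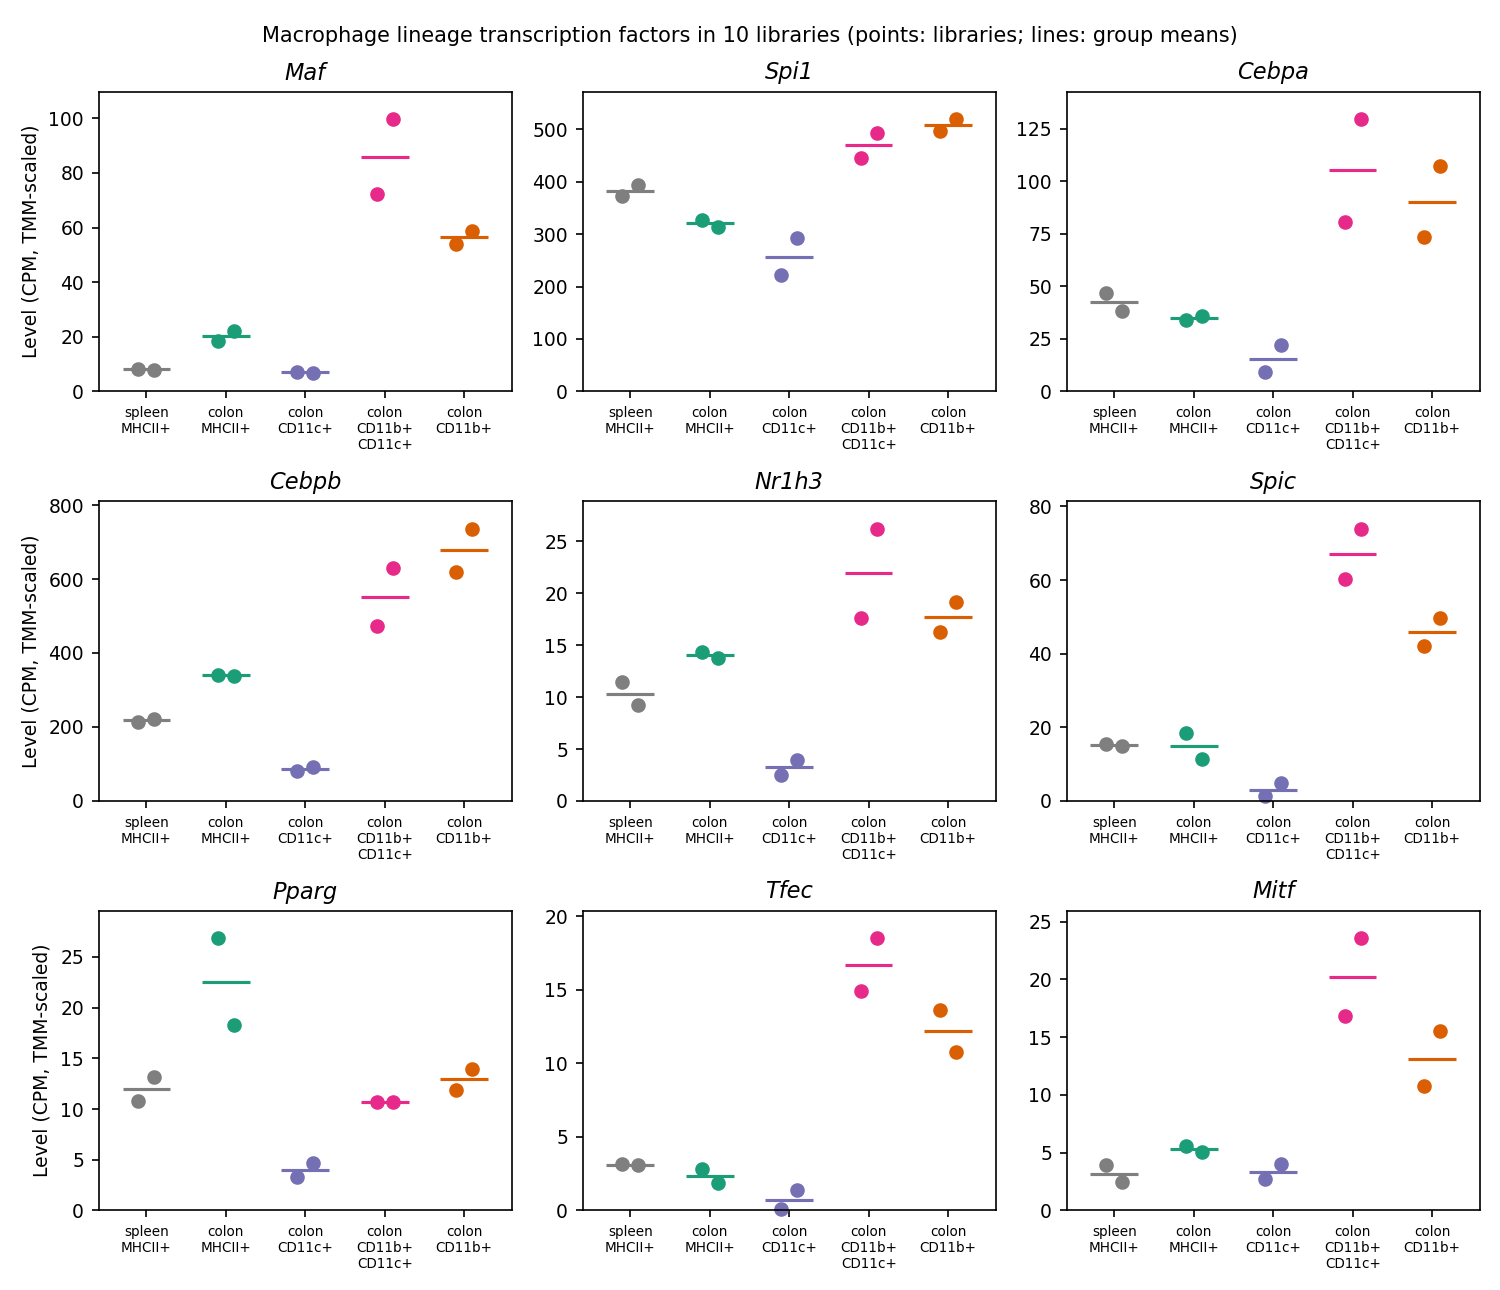
Level in CPM (linear axis from 0, own scale for each gene) of the 9 factors in the 5 groups; points are the 2 libraries and lines the group means. The CD11b+CD11c+ and CD11b+ libraries lie above the CD11c+ libraries for all 9, and Pparg alone has its highest values in colonic MHCII+ (26.8 and 18.3 CPM).

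Among the C/EBP factors, Cebpb (ENSMUSG00000056501.3, chr2:167688915-167690418, + strand) was the more abundant. It was at 81.5 and 91.9 CPM in CD11c+, 474 and 630 in CD11b+CD11c+, 619 and 736 in CD11b+, 341 and 337 in colonic MHCII+ and 214 and 221 in splenic MHCII+. The groups followed that order from CD11c+ through spleen and colonic MHCII+ to the CD11b-positive groups, and only the last pair overlapped. Cebpb was 7.82-fold higher in CD11b+ than CD11c+ (log2 2.97 ± 0.18, edgeR adjusted p = 0.000196) and 6.37-fold in CD11b+CD11c+ (log2 2.67 ± 0.18, adjusted p = 0.000318). For colonic over splenic MHCII+ the log2 was 0.64 ± 0.09 (adjusted p = 0.00117), and it stayed past the threshold in all 12 alternative settings.

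Cebpa (ENSMUSG00000034957.10, chr7:35119293-35121928, + strand) was at 9.26 and 22.0 CPM in CD11c+, 80.9 and 130 in CD11b+CD11c+, and 73.5 and 107 in CD11b+. It was at 34.0 and 35.9 CPM in colonic MHCII+ and 46.8 and 38.2 in splenic MHCII+. The CD11b-positive groups overlapped each other and lay above all other libraries. Cebpa was 5.84-fold higher in CD11b+ than CD11c+ (log2 2.55 ± 0.45, edgeR adjusted p = 0.00473). Without CD11c+ replicate 2 this log2 was 3.29, and without replicate 1 it was 2.04. For CD11b+CD11c+ over CD11c+ it was 2.76 ± 0.45 (adjusted p = 0.00454), or 3.50 without CD11c+ replicate 2. Between tissues it was -0.28 ± 0.14 (adjusted p = 0.112).

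Per coding length, Spi1 and Cebpb were the 2 most abundant of the factors in every group, but their balance differed. Spi1 made up 73.2% of the summed TPM of the 9 factors in CD11c+ and 62.2% in splenic MHCII+, whereas Cebpb made up 20.0% and 27.3%. In CD11b+ Cebpb, at 43.6%, ranked above Spi1, at 42.0%. The TPM ratio of Spi1 to Cebpb was 3.34 and 3.95 in the CD11c+ libraries, 2.29 and 2.27 in spleen, 1.21 and 1.09 in colonic MHCII+, 1.17 and 1.00 in CD11b+CD11c+, and 1.02 and 0.914 in CD11b+. The CD11c+ and splenic libraries thus lay above all libraries of the other 3 groups.

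The 4 C/EBP relatives did not follow Cebpb throughout. In CD11b+ over CD11c+ 3 were higher, and in CD11b+CD11c+ over CD11c+ all 4, although Cebpg kept its call in 2 of 15 alternatives there. Cebpe, a factor of granulocyte maturation, was at 16.3 and 12.5 CPM in CD11b+, 3.38 and 2.83 in CD11b+CD11c+, 20.3 and 27.9 in spleen and 8.99 ± 1.46 (SD, n = 2) in colonic MHCII+. It was lower in CD11b+CD11c+ than CD11b+ (log2 -2.21 ± 0.29, edgeR adjusted p = 0.00750) and lower in colonic than splenic MHCII+ (log2 -1.43 ± 0.22, adjusted p = 0.00188). The first of these calls was lost without CD11b+ replicate 1 (adjusted p = 0.0838) and without CD11b+CD11c+ replicate 1 (0.0524) or 2 (0.0531). Beside Cebpe, 11 neutrophil markers summed to 622 and 585 CPM in CD11b+, 139 and 178 in CD11b+CD11c+, 6001 and 8415 in spleen and 444 and 332 in colonic MHCII+. The sum of 6 eosinophil markers was 441 and 421 CPM in CD11b+ and 46.7 and 67.9 in CD11b+CD11c+, and the part of either cell type in the result was not tested. Cebpd was also lower in CD11b+CD11c+ than CD11b+ (log2 -0.83 ± 0.09, adjusted p = 0.00359). Ddit3, a stress-induced C/EBP relative, has a symbol shared by 2 gene IDs, and values are those of ENSMUSG00000025408.15. It was 5.13-fold higher in colonic than splenic MHCII+ (log2 2.36 ± 0.18, adjusted p = 8.58e-05).

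Of 10 genes linked to C/EBP factors, 9 were higher in CD11b+ than CD11c+ and none lower (median log2 2.93 against -0.05 for all genes). Among all genes, 26.3% were called higher and 26.2% lower in this comparison. Between tissues the list split, with Arg1, Il1b, Il6 and Saa3 higher in colonic MHCII+ and Csf3r, Lcn2, Lyz2, S100a8 and S100a9 lower. The background there was 60.4% of genes called, 30.5% higher and 29.9% lower. Il1b, the gene of an inflammatory cytokine, was 2004 CPM in colon and 338 in spleen (log2 2.57 ± 0.13, edgeR adjusted p = 1.66e-05). S100a9, a calprotectin subunit abundant in neutrophils, was 47.8 and 1947 CPM (log2 -5.34 ± 0.39, adjusted p = 6.48e-05). Csf3r, S100a8 and S100a9 are also on the neutrophil marker list. That list summed to 3.66 and 15.3 CPM in CD11c+ against 622 and 585 in CD11b+. The part of neutrophils in these differences was not tested. In CD11b+CD11c+ against CD11b+, Lcn2, S100a8 and S100a9 were lower, beside the neutrophil sums given above. Il6 was higher there, a call lost without any 1 of the CD11b+CD11c+ or CD11b+ libraries.

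Maf (ENSMUSG00000055435.6, chr8:115682942-115707794, - strand) had 2 coding transcripts in the index, which share all but the end of the coding sequence. Their ends are shown because the split of Maf between them rests on these bases. Both stretches begin at the same coding base, and capitals mark bases not in the other transcript. In Maf-201 the stretch runs over chr8:115705755-115705783 and, across an intron, chr8:115693159-115693192. In Maf-202 it is chr8:115705751-115705783, so this coding sequence ends within the first exon.
Maf-201: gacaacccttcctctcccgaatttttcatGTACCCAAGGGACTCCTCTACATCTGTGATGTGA
Maf-202: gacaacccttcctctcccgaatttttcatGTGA

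Maf was at 7.04 and 6.89 CPM in CD11c+, 72.1 and 99.6 in CD11b+CD11c+, 54.1 and 58.8 in CD11b+, 18.6 and 22.3 in colonic MHCII+ and 8.39 and 7.81 in splenic MHCII+. No 2 neighbouring groups overlapped. The CD11c+ libraries had nearly the same Maf level. Their macrophage marker sums were 302 and 1364 CPM. Their T cell sums, 826 and 342 CPM, and innate lymphoid and NK cell sums, 711 and 280 CPM, went the other way. The part of any of these cells in the Maf level was not tested. Maf was 8.09-fold higher in CD11b+ than CD11c+ (log2 3.02 ± 0.18, edgeR adjusted p = 0.000188) and 12.3-fold higher in CD11b+CD11c+ (log2 3.62 ± 0.18, adjusted p = 0.000159). The difference between tissues had a log2 of 1.33 ± 0.18 (adjusted p = 0.000947), past the threshold in all 12 alternatives. For CD11b+CD11c+ over CD11b+ it was 0.60 ± 0.16, and the adjusted p of 0.0599 ranged from 0.0306 to 0.301 over 15 alternatives, 5 of them past the threshold.

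Maf-202 took most of the estimated TPM of Maf in every library, between 68.2% and 94.2%. In the splenic libraries Maf-201 took 5.78% and 7.16%, in CD11b+ 17.8% and 21.2%, and in CD11b+CD11c+ 22.4% in both. The colonic MHCII+ libraries gave 7.39% and 31.8% and the CD11c+ libraries 15.3% and 31.2%. The splenic libraries were the lowest, CD11b+CD11c+ lay above CD11b+, and the wide colonic MHCII+ and CD11c+ ranges overlapped each other and both of these groups. The 2 transcripts differ by 34 and 4 coding bases only, and the split is kallisto's estimate with no error attached.

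The small Maf genes Maff, Mafg and Mafk, whose proteins lack a transactivation domain, were also higher in both CD11b-positive groups than in CD11c+ and in colonic than splenic MHCII+. The largest of these changes was that of Maff between tissues (log2 2.59 ± 0.45, edgeR adjusted p = 0.00304), which was 3.61 without splenic replicate 1. Mafk kept its call between tissues in 6 of 12 alternatives, and its log2 of 1.04 became 1.80 without splenic replicate 1. Without CD11b+CD11c+ replicate 2, the call of Mafg in CD11b+CD11c+ over CD11c+ was lost (adjusted p = 0.0707). Mafa was tested between tissues alone, and Nrl in no comparison. Maff, Mafg and Mafk were not called between CD11b+CD11c+ and CD11b+.

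Genes linked to Maf in macrophages had the highest median between tissues among the lists of relatives and linked genes. Of 11, 10 were higher in colonic MHCII+ than splenic MHCII+, F13a1 was lower, and the median log2 was 2.98 against -0.03 for all genes. The complement gene C1qb was 273 and 34.7 CPM (log2 2.98 ± 0.11, edgeR adjusted p = 5.53e-06), and Mrc1, the mannose receptor, 386 and 39.4 CPM (log2 3.29 ± 0.11, adjusted p = 5.14e-06). In CD11b+ and in CD11b+CD11c+ over CD11c+, 10 of 11 were higher, with medians of 3.47 and 3.87, and Il10 did not pass. Over all genes, 26.3% and 22.2% were called higher in these comparisons. In both, C1qa and C1qb lost their calls in some fits with 1 library left out. Mrc1 in CD11b+ over CD11c+ had a log2 of 4.15 ± 0.76 (adjusted p = 0.00543), or 3.38 without CD11c+ replicate 1 and 5.87 without replicate 2. Of these 11 genes, C1qa, C1qb, C1qc, Mertk and Mrc1 also stand on the macrophage marker list. Between CD11b+CD11c+ and CD11b+ edgeR called 0 of the 11 with all 6 libraries and 6 higher without either CD11c+ library. The median there was 0.61.

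**Figure D4:**
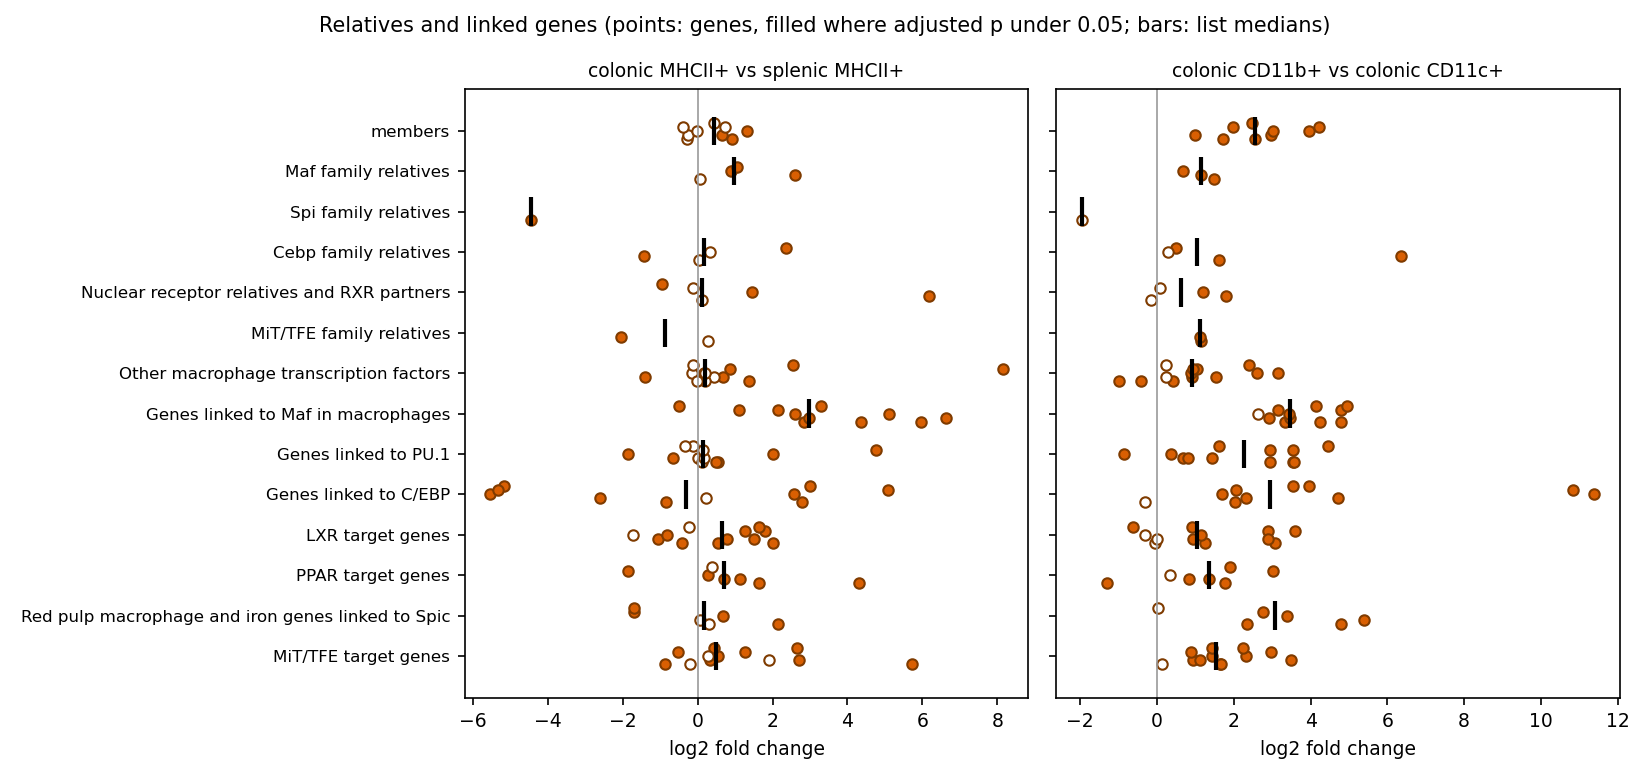
Log2 fold change (x axis) of the 9 factors, their relatives and linked genes, by list (y axis), for colonic over splenic MHCII+ cells (left) and CD11b+ over CD11c+ cells (right); points are genes, filled where the adjusted p is under 0.05, and black bars are list medians. Between tissues the list of genes linked to Maf has the highest median of those plotted (2.98) and the C/EBP list splits on both sides of 0; between subsets every list median but that of Spib is above 0.

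The nuclear receptors differed in their order of groups. Nr1h3 (ENSMUSG00000002108.10, chr2:91184061-91202834, - strand) is near Spi1 on chromosome 2, on the opposite strand. It was at 2.50 and 3.97 CPM in CD11c+, 17.6 and 26.2 in CD11b+CD11c+, 16.3 and 19.1 in CD11b+, 14.4 and 13.8 in colonic MHCII+ and 11.4 and 9.25 in splenic MHCII+. CD11c+ was apart from every other group, and the CD11b-positive groups overlapped each other. Nr1h3 was 5.57-fold higher in CD11b+ than CD11c+ (log2 2.48 ± 0.29, edgeR adjusted p = 0.00120) and 6.87-fold higher in CD11b+CD11c+ (log2 2.78 ± 0.29, adjusted p = 0.00102). Between tissues the log2 was 0.44 ± 0.19 (adjusted p = 0.0781), and with RLE scaling it was 0.51 (adjusted p = 0.0467). Of its 4 transcripts in the index, Nr1h3-201, Nr1h3-202 and Nr1h3-204 have the same coding sequence, and their estimates were equal in every library.

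Among all genes, 26.3% were called higher and 26.2% lower in CD11b+ than CD11c+. Of 12 LXR target genes, 8 were higher and 1 lower there, and the median log2 was 1.04. The lower gene was Scd2, whose call was lost without CD11b+ replicate 2. Abca1, a cholesterol exporter, was 658 and 78.1 CPM (log2 3.08 ± 0.76, edgeR adjusted p = 0.0161), but the call was lost without CD11b+ replicate 1 (0.0539) or 2 (0.0655), and the log2 was 2.29 and 4.91 without CD11c+ replicates 1 and 2. Pltp, a phospholipid transfer protein, was 351 and 29.3 CPM (log2 3.59 ± 0.18, adjusted p = 0.000123). Apoe, an apolipoprotein gene, was 9077 and 1230 CPM (log2 2.88 ± 0.99, adjusted p = 0.0484). Its call was kept in 8 of 15 alternatives, and the losses included RLE, TMM within the set and a length offset. The log2 was 2.00 without CD11c+ replicate 1 and 5.51 without replicate 2. Apoe was not called in CD11b+CD11c+ over CD11c+ (adjusted p = 0.0564). Between tissues 7 of the 12 were higher in colon and 3 lower, with a median of 0.66, at a background of 60.4% of genes called. Abca1 was 4.03-fold higher (log2 2.01 ± 0.15, adjusted p = 7.40e-05), whereas Abcg1, Mylip and Smpdl3a were lower. The related receptor Nr1h2, encoding LXRβ, was called in no comparison and had means between 117 and 141 CPM in all 5 groups.

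Pparg (ENSMUSG00000000440.12, chr6:115360951-115490399, + strand) has coding transcripts that differ at the start. The first 120 coding bases of Pparg-201 are shown because 52.8% to 100% of Pparg TPM was estimated for it. Capitals mark the 90 bases that the shorter Pparg-202 and Pparg-204 lack, and the stretch covers chr6:115422111-115422192 and chr6:115439840-115439877.
Pparg-201: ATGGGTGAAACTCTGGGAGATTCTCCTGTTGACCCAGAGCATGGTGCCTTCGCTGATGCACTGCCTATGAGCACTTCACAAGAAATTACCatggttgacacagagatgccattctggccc

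Pparg-202 and Pparg-204 have the same coding sequence of 1428 bases, contained whole in the 1518 bases of Pparg-201, and were listed at 0 in all 10 libraries. Since they hold no 31-base word of their own, a read from them cannot be told from one of Pparg-201. RefSeq lists 3 Pparg starts on GRCm38.p6, and the 250 bases before the third, chr6:115421816-115422065 on the + strand, end shortly before the first coding base of Pparg-201. They are shown with their matches to the C/EBP palindrome TTGCNNAA, searched on both strands, in capitals.
Pparg start 3: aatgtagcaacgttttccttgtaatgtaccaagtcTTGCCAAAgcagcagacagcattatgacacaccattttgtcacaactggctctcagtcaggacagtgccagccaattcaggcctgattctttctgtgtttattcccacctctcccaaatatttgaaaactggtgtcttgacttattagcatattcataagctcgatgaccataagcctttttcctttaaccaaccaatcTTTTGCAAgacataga

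Among all 32851 windows of this length, 9.56% held this motif at least once, and 2 of the 12 windows of the factors did. For the PU.1 core GAGGAA the share was 23.25% of all windows and 1 of 12 held it, a Pparg window. For the MiT/TFE E-box CACGTG it was 6.02%, and none of the 12 held it. Windows were matched for 7 of the 9 factors, not for Maf and Spi1. A match describes letters and is no evidence of binding.

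Pparg was the only one of the 9 with its highest level in colonic MHCII+ cells, at 26.8 and 18.3 CPM. It was at 10.8 and 13.2 CPM in splenic MHCII+, 3.26 and 4.72 in CD11c+, 10.7 in both CD11b+CD11c+ libraries and 11.9 and 14.0 in CD11b+. In CPM, colonic MHCII+ and CD11c+ lay apart from the rest at either end, and the 3 groups between were within 10.7 to 14.0 CPM. In TPM, Pparg was 10.6 and 7.42 in colonic MHCII+ and 4.52 and 7.52 in splenic MHCII+, so these gene sums overlapped. For Pparg-201 alone the groups lay apart, at 7.42 to 10.6 TPM in colonic and 4.52 to 5.37 in splenic MHCII+. The rest of the splenic sum was put in the shorter Pparg-206 and Pparg-207, at 0 to 0.719 and 0 to 1.44 TPM. Their coding sequences, of 289 and 666 bases, are contained in that of Pparg-201, and both were listed at 0 in colonic MHCII+. The tests below used gene sums, and Pparg-201 alone was not tested. Pparg was 3.28-fold higher in CD11b+ than CD11c+ (log2 1.71 ± 0.22, edgeR adjusted p = 0.00164) and 2.71-fold in CD11b+CD11c+ (log2 1.44 ± 0.22, adjusted p = 0.00382). Between tissues the log2 was 0.92 ± 0.23 (adjusted p = 0.0130), and the call was lost with an effective length offset (0.72, adjusted p = 0.117) and on log2(TPM + 1) by limma (0.53, adjusted p = 0.209). The epithelial sums of 5644 and 5246 CPM in the same colonic MHCII+ libraries stand beside this result, and their part in it was not tested.

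Of 7 PPAR target genes, 5 were higher and 1 lower both between tissues and in each subset comparison with CD11c+. Among all genes, 60.4% were called between tissues, 52.4% in CD11b+ over CD11c+ and 40.3% in CD11b+CD11c+ over CD11c+. Those called higher were 30.5%, 26.3% and 22.2%. The list medians were a log2 of 0.72, 1.36 and 1.58 in that order. Plin2 and Cd36 were the only ones higher in all 3, Cd36 keeping its call between tissues in 9 of 12 alternatives. Between tissues 3 were higher without splenic replicate 2, and the lower gene, Angptl4, lost its call without CD11c+ replicate 2 or CD11b+ replicate 2 in the first subset comparison and without either CD11b+CD11c+ library in the second. Angptl4, a secreted lipase inhibitor, was higher in colonic than splenic MHCII+ and lower in both CD11b-positive groups than in CD11c+, and Fabp4, a fatty acid binding protein, went the opposite way in each. Plin2, a lipid droplet coat protein, was higher by a log2 of 1.14, 1.36 and 1.58 in the order colonic over splenic MHCII+, CD11b+ and CD11b+CD11c+ over CD11c+. Cd36, a fatty acid and lipoprotein scavenger receptor, was also higher in CD11b+CD11c+ than CD11b+ (log2 0.92 ± 0.12, edgeR adjusted p = 0.00662), a call lost without CD11b+ replicate 1 (0.0785) or 2 (0.0615). Ppard, another PPAR gene, was 2.72-fold higher in colonic than splenic MHCII+ (log2 1.45 ± 0.12, adjusted p = 0.000102) and 3.49-fold in CD11b+ than CD11c+ (log2 1.80 ± 0.24, adjusted p = 0.00190). Of the RXR partners, Rxra was higher in CD11b+ than CD11c+ (log2 1.19 ± 0.18, adjusted p = 0.00268) and Rxrb lower in colonic than splenic MHCII+ (log2 -0.95 ± 0.09, adjusted p = 0.000207).

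In the MiT/TFE family, Mitf and Tfec were the 2 factors with the lowest mean CPM in splenic MHCII+ cells. Tfec (ENSMUSG00000029553.10, chr6:16833373-16898441, - strand) was at 0.119 and 1.37 CPM in CD11c+, which are 3 and 22 counts, and the exact Poisson interval of the first is 0.0246 to 0.349 CPM (95%, counting error only). It was at 14.9 and 18.5 CPM in CD11b+CD11c+, 13.6 and 10.8 in CD11b+, 2.85 and 1.89 in colonic MHCII+ and 3.16 and 3.08 in splenic MHCII+. Both CD11b-positive groups lay above all other libraries. Tfec had a log2 of 4.21 ± 0.69 in CD11b+ over CD11c+ (edgeR adjusted p = 0.00379) and 4.67 ± 0.69 in CD11b+CD11c+ over CD11c+ (adjusted p = 0.00326). Without CD11c+ replicate 1 these were 3.15 and 3.60, and without replicate 2 they were 6.58 and 7.04. Between tissues the log2 was -0.39 ± 0.39 (adjusted p = 0.424).

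Mitf (ENSMUSG00000035158.15, chr6:97807052-98021349, + strand) was at 2.70 and 4.03 CPM in CD11c+, 16.8 and 23.6 in CD11b+CD11c+, 10.7 and 15.5 in CD11b+, 5.60 and 5.04 in colonic MHCII+ and 3.89 and 2.49 in splenic MHCII+. It was the only one of the 9 whose lowest mean was in spleen, where its values overlapped those of CD11c+. Mitf was 3.96-fold higher in CD11b+ than CD11c+ (log2 1.98 ± 0.30, edgeR adjusted p = 0.00285) and 6.06-fold in CD11b+CD11c+ (log2 2.60 ± 0.30, adjusted p = 0.00141). Between tissues the log2 was 0.73 ± 0.34 (adjusted p = 0.106). Of its 7 transcripts in the index, Mitf-202 and Mitf-207 took most of the counts in the CD11b-positive libraries, and Mitf-201 had counts in CD11c+ alone, 26.5 and 5.47. None of the 3 holds a 31-base word of its own, so these estimates rest on combinations of shared words. In the 2 colonic MHCII+ libraries Mitf-207 was put at 0.0109 and 1.98 TPM.

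The window before the first Mitf start in RefSeq, chr6:97806808-97807057 on the + strand of GRCm38.p6, is shown because it holds both a Maf half-site, TGCTGAC, and a C/EBP palindrome, in capitals. The Maf half-site was present in 3.81% of all windows and in 2 of the 12 windows of the factors, both of Mitf.
Mitf start 1: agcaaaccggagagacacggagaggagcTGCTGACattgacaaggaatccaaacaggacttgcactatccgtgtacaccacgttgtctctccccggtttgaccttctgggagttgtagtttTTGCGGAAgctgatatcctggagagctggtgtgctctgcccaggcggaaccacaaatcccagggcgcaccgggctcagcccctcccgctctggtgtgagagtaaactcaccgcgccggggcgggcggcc

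The 2 MiT/TFE relatives, Tfeb and Tfe3, regulators of lysosome formation, were both higher in CD11b+ than CD11c+, Tfeb with a log2 of 1.11 ± 0.14 (edgeR adjusted p = 0.00151) and Tfe3 with 1.15 ± 0.11 (adjusted p = 0.000612). Between tissues Tfeb was lower in colonic MHCII+ (log2 -2.05 ± 0.10, adjusted p = 1.57e-05), at 22.8 and 24.2 CPM against 100 and 94.6 in spleen. Tfeb was thus opposite in sign to Mitf between tissues, where Mitf itself was not called. Of 12 MiT/TFE target genes, 11 were higher in CD11b+ and 10 in CD11b+CD11c+ than in CD11c+, and none lower, with medians of 1.54 and 1.87. Among all genes, 26.3% and 22.2% were called higher in these comparisons. Between tissues 60.4% of all genes were called, 30.5% higher and 29.9% lower, against which the tissue counts below are to be read. Ctsd, a lysosomal protease, was 7.91-fold higher in CD11b+ than CD11c+ (log2 2.98 ± 0.12, adjusted p = 8.58e-05) and 2.40-fold in colonic than splenic MHCII+ (log2 1.26 ± 0.11, adjusted p = 0.000129). Sqstm1, an autophagy receptor, was 1316 CPM in colonic and 202 in splenic MHCII+ (log2 2.70 ± 0.17, adjusted p = 3.84e-05). Between tissues 7 of the 12 were higher and Mcoln1 and Ostm1 lower, 1 of these calls being lost without splenic replicate 1. Over the alternatives 4 to 8 were higher and 1 to 3 lower.

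Of 6 red pulp and iron genes linked to Spic, Cd163 and Hmox1 were higher in colonic than splenic MHCII+ and Slc40a1 and Treml4 lower, with a median log2 of 0.18. With 60.4% of all genes called between tissues, 4 of 6 is near the background. In CD11b+ over CD11c+, 5 were higher and none lower, and the median was 3.07. Among all genes, 26.3% were called higher there. Hmox1, the heme-degrading enzyme, was 262 and 25.2 CPM (log2 3.39 ± 0.45, edgeR adjusted p = 0.00177), with a log2 of 4.31 without CD11c+ replicate 2.

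Of 13 other transcription factors of macrophages, 9 were higher and 2 lower in CD11b+ than CD11c+, and 5 were higher and 1 lower between tissues. The background was 52.4% and 60.4% of genes called, so the 6 of 13 between tissues was under it, and the 5 higher ranged from 3 to 7 over the alternatives. Irf5, an interferon regulatory factor, was among the 2 lower (log2 -0.41 ± 0.10, edgeR adjusted p = 0.0179), a call lost without CD11b+ replicate 1 (0.108) or CD11c+ replicate 2 (0.0577). Klf6 was higher in CD11b+ than CD11c+ (log2 0.94 ± 0.11, adjusted p = 0.00124). Nr4a1, with means of 745 CPM in CD11c+ and 875 in CD11b+, was not called (adjusted p = 0.270). In CD11b+CD11c+ over CD11b+, 4 were higher and none lower, Bhlhe40, Egr2, Irf5 and Runx1, but 1 was called without any 1 of the CD11b+CD11c+ or CD11b+ libraries.

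The 9 factors also differed in how closely they tracked each other over the 10 libraries, which share groups and scaling. Pearson's r of log2(CPM + 1) was highest for Cebpa with Spic, at 0.98, and lowest for Pparg with Mitf, at 0.25. The values of Pparg with the other 8 ran from 0.25 to 0.75, the latter with Nr1h3. Each gene tested in both sets with a mean of at least 10 CPM was then ranked by its r with each factor, over 8949 genes. Maf was most like Adgrg6 (r = 0.996), an adhesion receptor, with Itsn1 also among the nearest, and Spi1 was most like Dmxl2 (0.993), followed by Ifi204 and Ctsa. Spic was nearest to Rgl1 (0.997), Rap2b and Syk, a kinase of immune receptors, and Cebpb to Neu1 (0.996), a lysosomal sialidase, Tlr4 and Rhbdf2. Cebpa was nearest to Slc16a7, Abca9 and Soga1, Nr1h3 to Inppl1, Rhob and Egr2, Tfec to Myo1c, P2ry6 and Arl8a, and Mitf to Ripk1, Itsn1 and Prune2. For Pparg the highest r was lower, 0.969 with Stam, followed by Mid1ip1 and Akt1s1. These values describe 5 group levels in the main.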

How the data were processed

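Poly(A) RNA libraries were directional, per the labels' protocols. The deposited tables hold estimated counts, TPM, lengths and effective lengths for 66760 transcripts, per the file headers. Tools named in the submitters' processing notes are kallisto 0.44.0 and sleuth, with build mm10. The authors' TPM are relative abundances summing to 1000000 per library, per the file headers. As 88.9% of the deposited lengths are multiples of 3, they are coding lengths. Transcripts were matched to GENCODE M21 (98.48%), and the 0.532% to 0.912% of counts in unmatched ones were left out. Counts were summed per gene and rounded, filtered with filterByExpr within the 4 MHCII+ or 6 subset libraries, scaled by TMM over all 10, and tested with edgeR 4.0.16's two-sided quasi-likelihood F test in R 4.3.3, with Benjamini-Hochberg adjustment over all genes (0.05). Standard errors are log2FC divided by the square root of F. The MHCII+ and subset sets carry separate library numbering and were not tested against each other. Orders of groups across these sets are therefore descriptive, and a difference between the sets as such was not tested. The count test was tested on simulated data. Alternatives used RLE, TMM within sets, DESeq2 1.42.0, limma 3.58.1, no filter, 1 fit over all libraries, a length offset, a replicate block and leaving out each library. Sequences are from GENCODE and RefSeq. Factors and lists were chosen with earlier results of these data known. Genes named from lists are family relatives and the up to 3 most abundant, others being named in counts alone. Some results are not reported here.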

Additional observations from a re-analysis of the deposited data

How the results depend on the processing

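Over all alternatives, 491 of 513 values of the 9 factors kept their direction and side of the threshold, 11 passed it, 3 no longer did and 8 changed sign. The 3 were Pparg between tissues, and every call of a factor against CD11c+ was kept. Between tissues, Spic turned to 0.042 with RLE, 0.016 with TMM within the set, 0.040 with DESeq2 and, with 1 library left out, ranged from -0.42 to 0.27 (without colonic MHCII+ replicates 1 and 2). Between CD11b+CD11c+ and CD11b+, Pparg turned to 0.17 with the length offset, and with 1 library left out Cebpa ranged from -0.16 (without CD11b+CD11c+ replicate 2; -0.03 without CD11b+ replicate 1) to 0.52 and Nr1h3 from -0.0070 (without CD11b+CD11c+ replicate 2) to 0.56. None of these was called. In that comparison 1719 genes were called, against 937 with the length offset and 844 and 743 by limma on log2(TPM + 1) and log2(TPM + 0.1), and the share called higher was 45.4% with RLE, 39.3% with TMM within the set, 46.2% with the offset and 27.1% and 28.1% by limma. In CD11b+ over CD11c+ that share was 50.1%, against 60.6% and 60.8% by limma. In CD11b+CD11c+ against CD11b+, factors called rose from 0 to 1 without the count filter (Maf, adjusted p = 0.0306) and to 1 in the fit over all 10 libraries (Maf, 0.0421). Leaving out 1 library gave 0 to 2 (Maf, without CD11b+CD11c+ replicate 1 or CD11c+ replicate 2; Spic, without either CD11c+ library). Genes called then ranged over 231 to 2262 in that comparison, 4510 to 7053 for CD11b+ and 3170 to 5432 for CD11b+CD11c+ over CD11c+, and 7715 to 8758 between tissues. The causes were not tested. Of 101 calls of named list genes, 69 were kept in every alternative and none changed sign.

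Subset libraries share replicate numbers, and the deviations of same-numbered libraries correlated at 0.33, -0.05 and 0.01. Of the 9 factors, 6 were higher in replicate 2 than 1 in all 3 subset groups. These values cannot show whether same-numbered libraries share mice or a sort, so the block is given as an alternative only. With a replicate block 7381, 5705 and 1896 genes were called for CD11b+ and CD11b+CD11c+ over CD11c+ and for CD11b+CD11c+ over CD11b+, and in the last 2 factors, Maf (0.0464) and Mitf (0.0429). Splenic numbers were not taken from labels, so no block was fitted between tissues. With 2 libraries per group, differences under the spread were not detectable, and the 3 counts of Tfec in CD11c+ replicate 1 limit its fold change.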
